A study of Mus musculus with 8 samples.

Results

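The accessible chromatin of the control dorsal lateral geniculate nucleus (dLGN) was described from the 2 ATAC-seq libraries of mice on control chow, of 8 libraries in the series. Overlapping peaks were merged within each library, and a region was kept when regions of both libraries overlapped by at least 1 bp. This gave 155552 shared regions. Joining the peaks of all 8 libraries gave 443205 regions. The mice were C57Bl/6J and at postnatal day 32 (P32). They had received control chow, made in parallel with the PLX chow of the microglia-depleted group, from P20 until they were killed. No gene was altered in these mice and no drug was in their food. The other groups of the series were dLGN of mice on PLX chow and coronal sections of Fn14 knockout and wild-type mice, and they enter no comparison here. The tissue was bulk microdissected dLGN, homogenised to nuclei, with 50000 nuclei per aliquot. The labels number the libraries as replicates 1 and 2 and do not say whether each came from 1 animal, from pooled animals or from separate animals. Differences between the libraries may therefore be technical.

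The dLGN is the thalamic nucleus that relays signals from retinal ganglion cells to the primary visual cortex. It holds glutamatergic relay neurons, a smaller set of local inhibitory neurons, astrocytes, the oligodendrocyte lineage, microglia and vascular cells. In ATAC-seq the Tn5 transposase cuts DNA that is not wrapped in nucleosomes or packed away and inserts sequencing adapters there, so that peaks mark promoters, enhancers and other open elements. Promoters of widely expressed genes are usually open in every cell type and often lie in CpG islands, whereas many elements away from promoters are open in only some cell types. In bulk tissue, few cells with an open element and many cells with a weakly open element cannot be told apart.

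The strength of a region was the highest −log10 p that the authors' peak calling gave within it, and regions were ordered by the mean of their ranks in both libraries. The fold enrichment of a peak is the authors' ratio of its signal over the background. The authors computed both for every peak. Peak lists carry no read counts, so sequencing depth is unknown here and counting intervals are not given. Gene starts, with strand, were listed for 17492 of 21887 protein-coding genes, and for the other 4395 genes either end of the gene stood in for the start.

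Promoter sequences show what lay under the regions described here. The DNA just before a gene start is printed for 3 of the strongest promoters in the tissue (Hjurp, Map9 and Bcl10), for 2 thalamic neuron genes with a region over the start (Rorb and Plcb4), and for Alb, the serum albumin gene of the liver, whose start had no shared region. Each run holds the 250 bases before the start, 5′ to 3′ on the strand of the gene, from RefSeq on mm10. Capitals mark matches on either strand to the letters of the GC box (GGGCGG), the CCAAT box (its name gives its letters), the TATA box (TATAAA), the cyclic AMP response element (TGACGTCA), the ETS motif (TTTCCGG), the NRF1 motif (GCATGCGC) or the YY1 motif (AAGATGGC). Matches may overlap one another.
Hjurp: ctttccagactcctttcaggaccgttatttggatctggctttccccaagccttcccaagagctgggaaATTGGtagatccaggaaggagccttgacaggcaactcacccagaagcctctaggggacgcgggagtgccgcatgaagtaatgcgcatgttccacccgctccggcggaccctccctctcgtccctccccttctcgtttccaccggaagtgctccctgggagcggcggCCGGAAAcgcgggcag
Map9: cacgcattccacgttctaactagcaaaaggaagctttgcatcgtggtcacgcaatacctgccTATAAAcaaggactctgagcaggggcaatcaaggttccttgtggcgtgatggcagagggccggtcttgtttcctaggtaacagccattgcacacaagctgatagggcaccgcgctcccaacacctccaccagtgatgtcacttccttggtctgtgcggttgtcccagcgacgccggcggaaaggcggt
Bcl10: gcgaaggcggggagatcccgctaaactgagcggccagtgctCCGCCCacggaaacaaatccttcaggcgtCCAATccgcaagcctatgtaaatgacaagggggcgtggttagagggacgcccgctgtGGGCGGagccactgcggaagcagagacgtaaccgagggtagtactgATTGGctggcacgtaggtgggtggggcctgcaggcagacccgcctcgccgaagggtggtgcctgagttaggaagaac
Rorb: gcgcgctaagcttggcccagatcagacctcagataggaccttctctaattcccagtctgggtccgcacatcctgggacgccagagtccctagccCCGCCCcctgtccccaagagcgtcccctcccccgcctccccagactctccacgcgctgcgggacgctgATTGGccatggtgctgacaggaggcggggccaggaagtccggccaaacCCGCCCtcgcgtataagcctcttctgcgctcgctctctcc
Plcb4: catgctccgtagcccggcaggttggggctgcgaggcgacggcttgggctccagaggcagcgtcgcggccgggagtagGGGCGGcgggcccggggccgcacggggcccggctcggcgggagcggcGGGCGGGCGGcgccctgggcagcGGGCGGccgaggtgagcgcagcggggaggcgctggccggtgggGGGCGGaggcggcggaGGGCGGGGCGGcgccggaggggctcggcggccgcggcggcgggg
Alb: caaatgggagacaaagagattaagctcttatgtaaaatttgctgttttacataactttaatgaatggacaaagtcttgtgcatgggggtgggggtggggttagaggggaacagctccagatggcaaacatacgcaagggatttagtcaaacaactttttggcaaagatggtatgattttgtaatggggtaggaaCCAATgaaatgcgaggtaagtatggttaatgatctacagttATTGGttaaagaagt

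The Hjurp run (chr1:88277580-88277829, minus strand) held 1 CCAAT box and 1 ETS match and was 60.8% G or C with 16 CpG. The Map9 run (chr3:82357822-82358071, plus strand) held 14 CpG and 1 TATA box match far upstream of the start. The Bcl10 run (chr3:145924012-145924261, plus strand) held 2 GC boxes and 2 CCAAT boxes, with 19 CpG. The Rorb run (chr19:19111197-19111446, minus strand) held 2 GC boxes and 1 CCAAT box. The Plcb4 run (chr2:135659297-135659546, plus strand) was 85.2% G or C, with 42 CpG and 7 GC boxes. The Alb run (chr5:90460620-90460869, plus strand) was 39.2% G or C with 2 CpG, and held 2 CCAAT boxes and no GC box. A match is a description of the letters and does not show that a factor was bound.

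Most of the accessible DNA was found in both libraries, and the strongest regions were largely the same in each. The library of replicate 1 had 285771 peaks in 215535 regions that covered 84.5 Mb, and that of replicate 2 had 267377 peaks in 204905 regions that covered 77.3 Mb. Of these regions, 73.6% and 78.3% overlapped a region of the other library, and they held 84.9% and 87.7% of the covered base pairs. The base pairs common to both libraries were 60.4 Mb, a share of 0.595 of those covered in either. Each of 148162 shared regions, 95.2%, joined exactly 1 region of each library.

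The regions missing from the other library were weak. Their median −log10 p was 4.26 in replicate 1 and 3.88 in replicate 2, against 16.4 and 13.2 for the regions of each library that were shared. The strongest unshared region reached 45.8 in replicate 1 and 40.4 in replicate 2. Of the strongest 50 shared regions of each library, 38 were in common, and of the strongest 100, 84. Of the strongest 1000, 921 were in common, and of the strongest 20000, 17752. Over the 155552 shared regions the Spearman correlation of −log10 p between the libraries was 0.881 and that of fold enrichment was 0.875. These describe regions, which are not independent replicates, and both libraries share the sequence composition of the same sites.

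**Figure D1:**
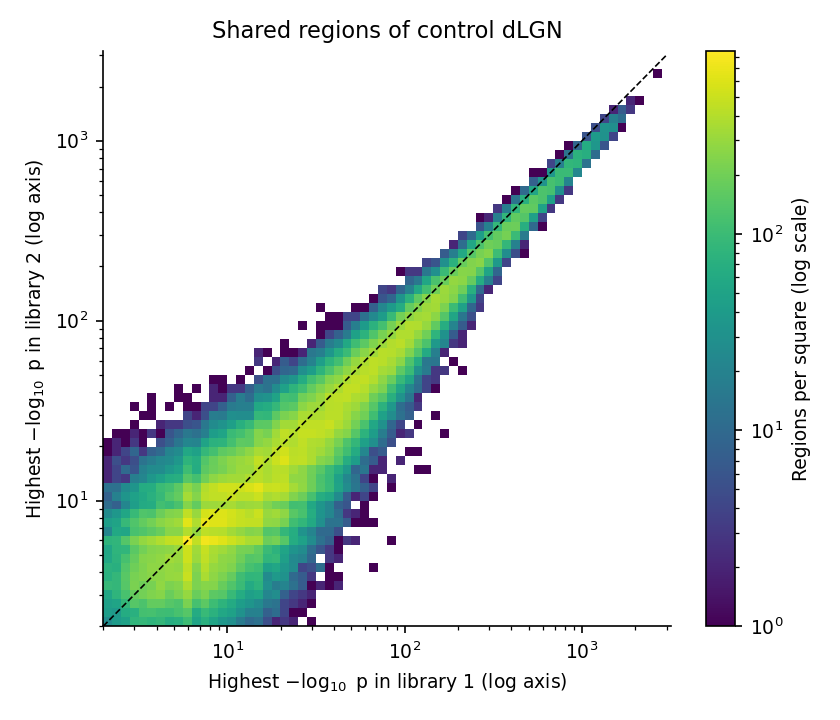
Highest −log10 p of each of the 155552 shared regions in library 1 (horizontal, log axis) and library 2 (vertical, log axis), with colour giving the number of regions per square on a log scale and a dashed line where both are equal. Points narrow towards the line as strength rises, and most lie below it, since library 1 had the higher value in 65.7% of regions.

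Values in replicate 1 were the higher ones for most regions. The median −log10 p over shared regions was 17.1 in replicate 1 and 13.8 in replicate 2, the median fold enrichment was 4.28 and 3.90, and replicate 1 had the higher −log10 p in 65.7% of regions. The −log10 p of a peak grows with the number of reads behind it, and the part of depth in this difference was not tested. The strongest summits of the 2 libraries lay a median of 16 bp apart, and 80.9% of pairs lay within 50 bp. Among the 20000 strongest regions the median gap was 6 bp.

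Shared regions were narrow, with a median width of 433 bp (quartiles 303 and 631 bp, range 150 to 3127 bp). Only 10414 regions, 6.70%, were wider than 1000 bp. In 33381 regions, 21.5%, both libraries had more than 1 summit. Width followed strength in part, with a Spearman correlation of 0.607 over the shared regions.

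The strongest regions of the dLGN lay at gene starts. Of the 20 strongest, 19 were centred within 1 kb of a gene start. They were 658 to 1446 bp wide, and none ranked below 25 in either library. The strongest in both was over the start of Hjurp, which encodes the chaperone of the centromeric histone CENP-A (chr1:88276875-88277858). Its −log10 p was 2723 in replicate 1 and 2259 in replicate 2, and its fold enrichment was 23.8 and 22.7. Map9, a microtubule-associated protein gene, followed with a −log10 p of 2095 and 1749 (chr3:82357686-82358646). Both genes are best known from dividing cells, and their promoters led the order in each library.

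The third strongest region lay inside Pcmtd1, 1848 bp from the nearer end of the gene, whose start is not listed, with a −log10 p of 1961 and 1630. Bcl10, an adaptor of NF-kB signalling, had 1934 and 1600 (chr3:145923800-145924885). Garem1, a growth factor signalling adaptor, had 1955 and 1570. The order of these 2 depends on the library, since Bcl10 ranked 5 and 4 and Garem1 ranked 4 and 6. Cggbp1, a CGG repeat-binding protein gene, had the widest region of the 20 and values of 1866 and 1575.

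Among the remaining genes of the 20 strongest, Pdcd10 encodes a protein mutated in cerebral cavernous malformations, and its region had a −log10 p of 1784 and 1532. Tpp2, a tripeptidyl peptidase gene, had 1725 and 1493. Fbxo48, an F-box gene, had the narrowest region of the 20 and their highest fold enrichment, 32.9 and 32.2 (chr11:16951024-16951681). The start of a long noncoding RNA gene, Eldr, lay 71 bp from its centre. Sel1l acts in the degradation of proteins from the endoplasmic reticulum, Xrcc4 in the joining of broken DNA ends, Papss1 in making the sulfate donor PAPS, Tars charges transfer RNA with threonine, Arl13b is a GTPase of the primary cilium, and Hspa13 belongs to the Hsp70 family. The others were Armc1, Tasp1, Bmt2, 4930579G24Rik and Cldnd1. In replicate 1 the −log10 p of the 20 ran from 1601 to 2723 and in replicate 2 from 1378 to 2259. The last of the 20, Cldnd1, had 1638 and 1390, and the next region, at Ebag9, had 1668 and 1347.

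The order depends on the measure of strength. When regions were ranked by fold enrichment, 1 of the same 20 remained among the 20 highest, the one at Fbxo48. The 20 highest by fold were again at gene starts, 19 of 20, but at other genes. Cep128, a centriole gene, led with a fold enrichment of 35.9 in replicate 1 and 33.8 in replicate 2. Spc25, of the kinetochore, had 33.1 and 32.2, Diaph3, an actin nucleator of dividing cells, had 32.8 and 31.1, Mcm10, of DNA replication, had 31.0 and 30.5, and Bub1b, of the spindle checkpoint, had 32.5 and 29.3. Zinc finger genes Zfp120, Zfp935, Zfp950 and Zfp960 were also among them. The region at Hjurp, first by −log10 p, had a fold enrichment of 23.8 and 22.7. These genes were named after their values were seen.

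Position relative to genes changed with strength. Over all shared regions, 15883 (10.2%) were centred within 1 kb of a protein-coding gene start, 73482 (47.2%) lay elsewhere inside a gene, 11896 (7.65%) lay outside genes but within 10 kb, 18741 (12.0%) lay 10 to 50 kb away and 35550 (22.9%) lay beyond 50 kb. Exons and introns were not assigned. Of the 1000 strongest regions, 94.8% were at a start. The share was 80.8% for the orders 1001 to 5000, 30.4% for 5001 to 20000 and 3.32% for the weakest class, 100001 to 155552. Regions inside genes took the reverse course, from 2.60% of the strongest 1000 to 53.3% of the weakest class.

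**Figure D2:**
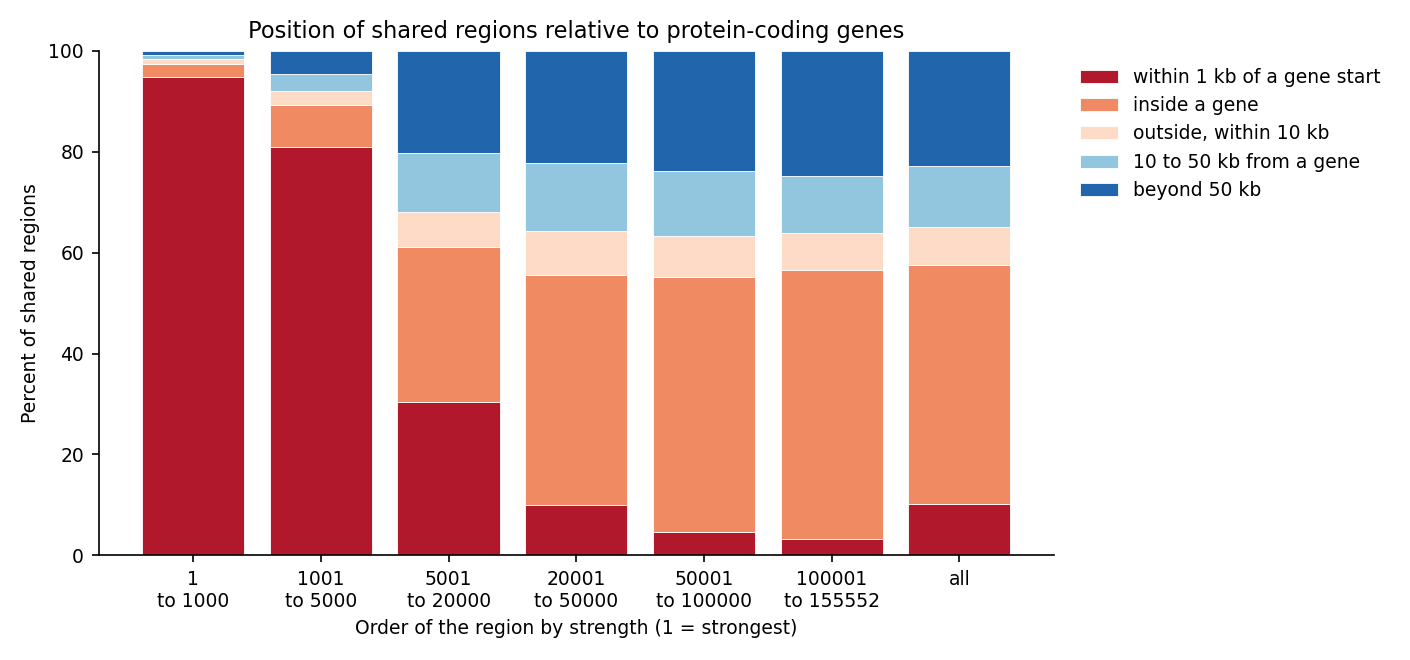
Percent of shared regions in each position class relative to protein-coding genes, for 6 classes of strength from the 1000 strongest (left) to the weakest, and for all regions (right). The share within 1 kb of a gene start drops from 94.8% to 3.32% from the strongest to the weakest class.

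Regions at starts were wider and stronger than those elsewhere. Their median width was 892 bp, against 410 bp for regions inside genes and 420 bp for those beyond 50 kb. Their median −log10 p was 115 in replicate 1 and 96.1 in replicate 2, whereas inside genes it was 14.4 and 11.9 and beyond 50 kb 15.1 and 11.9. Their median fold enrichment was 10.3 and 9.62, against 3.91 and 3.57 inside genes. Regions far from genes were thus as strong as those inside them by −log10 p. When noncoding genes and pseudogenes of the annotation were counted too, 7.95% of regions lay beyond 50 kb in place of 22.9%.

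Summits at starts lay just upstream of the start, where the promoter is usually kept free of nucleosomes. Of the regions over listed starts, 8994 covered exactly 1 start. The median position of the strongest summit was 38 bp upstream in replicate 1 (quartiles −85 and 5 bp) and 39 bp upstream in replicate 2 (−86 and 5 bp). The summit lay upstream of the start in 72.6% and 72.5% of these regions, and within 200 bp of it in 83.5% and 83.7%. The 50 bp just upstream of the start held the most summits, 2777 and 2688.

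**Figure D3:**
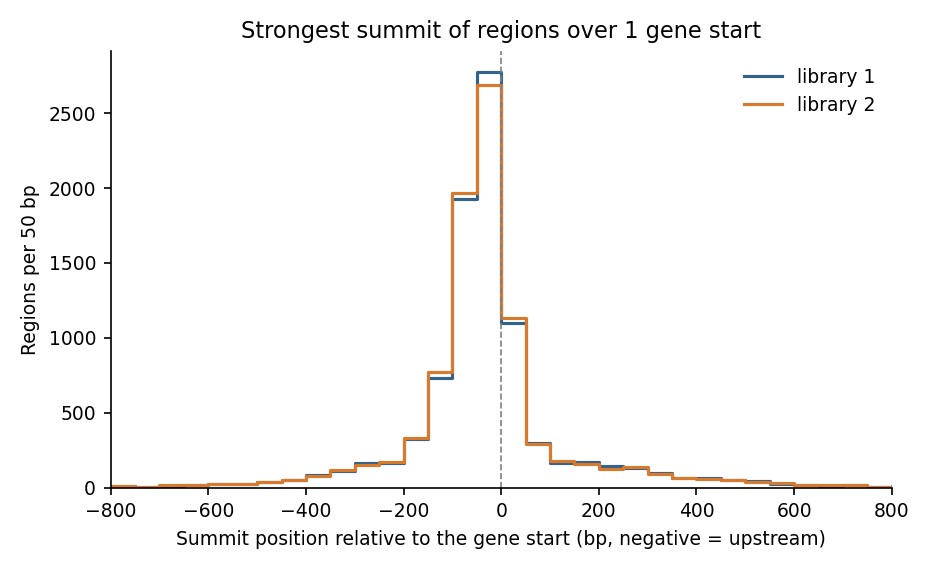
Number of regions per 50 bp by the position of the strongest summit relative to the gene start (bp, negative values upstream), for the 8994 regions over exactly 1 listed start, with 1 line per library. Both lines peak in the bin just upstream of the start, with 2777 and 2688 regions.

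Starts shared by a pair of genes on opposite strands, known as divergent or bidirectional promoters, were the stronger ones. Of 10687 regions over listed starts, 749 (7.01%) covered starts of genes that run away from each other. Their median order by strength was 4627, against 10718 for the 9917 regions over the start of a single gene. Their median −log10 p was 313 in replicate 1 and 262 in replicate 2, against 160 and 133, and their median width was 1078 bp against 962 bp. In all, 3 of the 20 strongest regions were of this kind: those at Pdcd10 and Serpini1, at Xrcc4 and Tmem167, and at Etfdh and 4930579G24Rik. The starts of Xrcc4 and Tmem167 lay 59 bp apart. The counts are descriptions, and no test of the difference was made.

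Promoters with strong regions were rich in CpG, and those with no region were not. Among 17492 genes with a listed start, the median CpG count in the 250 bases before it was 19 for the 891 genes whose start lay under one of the 1000 strongest regions, 18 for the orders 1001 to 5000, 17 for 5001 to 20000, 13 for weaker regions and 2 for the 6686 genes with no region over the start. The median share of G or C was 62.4% in the first of these classes and 46.0% in the last, against 55.6% over all genes. The runs of Bcl10 and Alb printed above lie at or near these medians, with 19 and 2 CpG.

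Motif matches followed different courses over the classes. A GC box, the site of Sp1-family factors, was found in 71.2% of the promoters under the 1000 strongest regions, 55.1% of those under weaker regions and 13.4% of those with no region, against 43.7% of all. A CCAAT box, the site of NF-Y, was found in 58.4% under the 1000 strongest, 46.0% and 33.5% in the next classes and 25.5% under weaker regions, but in 35.5% of promoters with no region (36.2% of all). A TATA box match was found in 2.69% of the promoters under the 1000 strongest and 22.3% of those with no region (12.1% of all). ETS and NRF1 matches were found in 7.18% and 6.06% under the 1000 strongest and in 1.15% and 0.583% with no region, against 3.73% and 3.04% of all. The cyclic AMP response element was found in 3.59% under the 1000 strongest against 1.99% of all, and the YY1 motif in 2.13% against 1.53%. The base composition of the classes differs as given above, and its part in these shares was not tested.

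**Figure D4:**
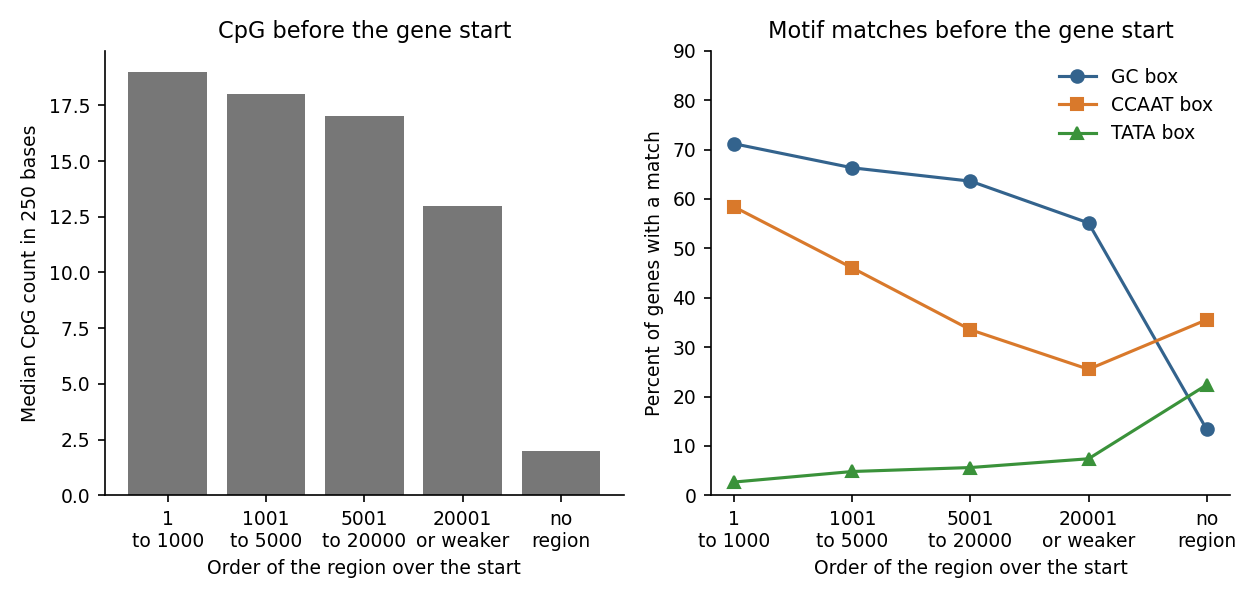
Median CpG count (left) and percent of genes with a GC box, CCAAT box or TATA box match (right) in the 250 bases before the listed start, for 5 classes of genes by the order of the shared region over the start. CpG counts go from 19 to 2 and TATA box matches from 2.69% to 22.3% between the strongest class and genes with no region, whereas CCAAT box matches are lowest, 25.5%, under weak regions.

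Away from protein-coding genes, several of the strongest regions sat at noncoding genes. There were 54291 shared regions more than 10 kb from any protein-coding gene, of which 17 were among the 1000 strongest. Of the 20 strongest, 8 lay within 1 kb of the start, or either end where no start was listed, of a noncoding gene or pseudogene, and of the 336 among the 5000 strongest, 72 did. Over all 54291 the share was 5.50%. Chaserr, a long noncoding RNA gene next to the chromatin remodeller gene Chd2, had its start 64 bp from the centre of a region with a −log10 p of 772 in replicate 1 and 762 in replicate 2 (chr7:73557832-73559085). The start of Snhg5, a small nucleolar RNA host gene, lay 139 bp from a region with 703 and 604. Dubr had 725 and 580 and was the last of the 20. The other 5 were Gm26901, 4632415L05Rik, BB218582, Erdr1 and 5430416N02Rik.

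The other 12 of these 20 had no such start within 1 kb. The strongest, with a −log10 p of 1413 and 1186, lay 12630 bp from Ccnl1, a cyclin gene (chr3:65974211-65975107). A region with 1323 and 988 lay 109982 bp from Ogfrl1 (chr1:23255847-23257036). A region with 1016 and 866 lay 78076 bp from Mef2c, a neuronal and muscle transcription factor gene, and 6270 bp from Mir9-2, a gene of the neural microRNA miR-9 (chr13:83744703-83745606). A region with 901 and 753 lay 236493 bp from Myt1l, a neuronal transcription factor gene (chr12:29290732-29291461). A region with 684 and 624 had Ndufa4 as its nearest gene, 929399 bp away (chr6:10970583-10971362). The others lay nearest to Zfp958, Zfat, Tmem161b, Tead4, Rab39b, Pum2 and Ptpdc1. The last of the 20 ranked 1062 in the whole order, and the next outside them, with 651 and 644, ranked 1077.

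The widest regions were also at gene starts but were not the strongest. Of the 20 widest, 19 were centred within 1 kb of a start, and their order by strength ran from 306 to 58436 with a median of 8613. They held 5 to 10 summits in a library and had fold enrichments of 3.75 to 16.6. Of the 133 regions wider than 2000 bp, 101 (75.9%) were at a start. The widest, 3127 bp, lay at Gm20783 and LOC108167694 (chr9:124422837-124425963), with a −log10 p of 407 in replicate 1 and 305 in replicate 2 and a fold enrichment of 6.12 and 5.68. The pipeline settings put multimapping at 0, and whether this locus has near-identical copies was not tested.

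Next to it in width, Nr3c1, the glucocorticoid receptor gene, had 2801 bp, inside the gene and 28857 bp from its nearer end. The start of Nr3c1 is not listed, so whether this region lies at a start is unknown here. Rims2, a presynaptic active zone gene, had 2750 bp and only 57.7 and 50.5 in −log10 p. Fgf13, a modulator of sodium channels, had 2674 bp, Cacna2d1, a calcium channel subunit gene, 2456 bp, and Slc6a15, a neutral amino acid transporter gene of neurons, 2455 bp. Ncoa2, a nuclear receptor coactivator gene, joined width and strength, with 2450 bp and a −log10 p of 1008 and 963. Other genes were Nol4l, Klhl29, Dyrk2, Tent5a, Ube2ql1, Chst2, Ptchd1, Sp3, Foxq1, Slc35d3, Hsp90ab1 and Ppp2r2c. The last of the 20, at Ppp2r2c, had 2362 bp and the next, at Tmem178b, 2353 bp. The membership depends on how width is taken: 12 of the 20 remained among the widest when only the interval common to both libraries was measured, and 11 and 10 when a single library was used.

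The genes with the most regions were all long. Macrod2 had 136 shared regions inside, Pde4d, a cyclic AMP phosphodiesterase gene, 133, Lsamp, a neural adhesion gene, 129, and Ptprd and Tenm2 125 each. Ptprd encodes a presynaptic receptor phosphatase and Tenm2 a teneurin, a transsynaptic adhesion protein. Tenm3, a teneurin needed for the wiring of the retina to its targets, had 113 and Tenm4 108. Nrxn3, a presynaptic neurexin, had 111, and Dlg2, a postsynaptic scaffold, 104. The others were Fhit with 117, Ctnna2 with 108, Celf2 with 105, Astn2 with 102, Ptprg with 101, Cdh13 with 100, Gpc6 with 99, Ctnnd2 with 98, Ctnna3 and Pcdh15 with 97 each, and Ank2 with 95. The next gene, Anks1b, had 94. In single libraries Macrod2 held 193 regions in replicate 1 and 179 in replicate 2, and 18 of the 20 were among the 20 genes with most regions in each library.

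The number of regions went with gene length. The 20 genes were 579 to 2271 kb long, and over 21887 protein-coding genes the Spearman correlation of the number of regions with gene length was 0.756. Per 100 kb they held 5.27 (Dlg2) to 16.4 (Ank2) regions, against a median of 8.24 over the 2429 genes of at least 100 kb. Over the 227 genes longer than 500 kb the median was 53 regions and 6.67 per 100 kb. No shared region was centred in 7062 genes (32.3%), and 85938 regions (55.2%) were centred in at least 1 gene. Of the 20 genes, Pde4d, Tenm2, Tenm3, Cdh13 and Gpc6 had no shared region over the listed start or the gene ends.

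Long genes with few regions were mostly on the X chromosome. Of the 10 genes longer than 500 kb with the fewest regions per 100 kb, 7 were on the X chromosome, which held 11 of all 227 such genes (4.85%). The median of those 11 was 1.46 regions per 100 kb, against 6.67 over the 227. Dmd, the dystrophin gene, had 35 regions in 2390 kb, Il1rapl1, a synaptic adhesion gene, 9 in 1375 kb, and Tenm1, the X-linked teneurin, 8 in 901 kb, whereas the autosomal Tenm2 had 125. Skint5 had none. The X chromosome held 2715 shared regions, 2.81 per protein-coding gene, and the autosomes held from 3.55 (chromosome 7) to 12.5 per gene. The regions found there had a median −log10 p of 19.3 in replicate 1 and 16.6 in replicate 2, against 17.1 and 13.8 over all shared regions. The Y chromosome held 16 regions. The labels do not give the sex of the mice, and its part in these counts was not tested.

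Among genes of at least 20 kb, the 20 with the most regions per 100 kb were all short, from 20.2 kb (Sft2d2) to 47.1 kb (Rara). A few regions give a high value per 100 kb in a short gene. The median was 7.58 over the 10039 genes of at least 20 kb and 8.24 over those of at least 100 kb. Shorter genes as a whole were thus not shown to be denser. Sft2d2 led with 9 regions, 44.6 per 100 kb. Kdm6b, a histone H3K27 demethylase gene, had 8 regions (36.6 per 100 kb), Slc6a9, the glial glycine transporter gene, 12 (35.2), and Itm2b 8 (34.7). Lhx9, a homeobox gene of the developing thalamus, had 8 regions in 23.7 kb (33.8 per 100 kb), although its region over the start had a −log10 p of only 27.1 and 28.6. Tspan2, an oligodendrocyte tetraspanin gene, had 12 regions, Psap, of lysosomal sphingolipid breakdown, 8, Gabbr1, a GABA-B receptor subunit gene, 9, and Snph, an axonal anchor of mitochondria, 14. Rara, the retinoic acid receptor alpha gene, had 15. The others were Snx18, Stard3nl, Il17ra, Cxxc5, Cipc, Bmf, Lrrtm1, Suclg1, Cyb5a and Usp2, the last with 31.5 per 100 kb. Klhl25 came next with 31.0.

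Gene lists were read by whether a shared region covered the start. Over all 21887 protein-coding genes, 13162 had a shared region over the start, 60.1%, and 9155 had one among the 20000 strongest, 41.8%. The labelled tissue was checked against marker lists of the thalamus and of other cell types. Of 20 thalamic neuron genes, 19 (95%) had a region over the start, above the share of all genes. Only 6 (30%) had one of the 20000 strongest, below the 41.8% of all genes. Of 20 genes of cortical and hippocampal excitatory neurons, 7 (35%) had a region over the start and 3 (15%) had one of the 20000 strongest. These were Nr4a2, which the list of activity-regulated genes also holds, with a −log10 p of 292 in replicate 1 and 234 in replicate 2, Prox1, a homeobox gene of the dentate gyrus, with 117 and 106, and Rasgrf2 with 124 and 71.1. Rtn4r, Emx2, Cux2 and Lhx5 were covered by weaker regions. Emx1, Neurod6, Tbr1 and Slc17a7, which mark the cortex and hippocampus, had none. With a region within 1 kb of the start allowed, the counts were 20 of 20 and 14 of 20, against 14586 of 21887 genes. The gap between the lists is narrower under that setting, and the cortical and hippocampal share is not below that of all genes. With both ends of every gene in place of starts, the counts were 17 and 11 of 20, against 12056 of 21887 genes. The cortical and hippocampal share then lies close to that of all genes. Its low count over starts thus depends on how a covered start is defined.

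Thalamic transcription factors had open starts in both libraries. Rorb, a nuclear receptor of thalamic relay neurons and of layer 4 of the cortex, had a −log10 p of 458 in replicate 1 and 460 in replicate 2, with 25 regions inside its 181 kb. Its region, chr19:19110162-19111740, was 1579 bp wide and takes in the run printed above. Tcf7l2, a regulator of thalamic identity and effector of Wnt signalling, had 74.5 and 99.5 with 25 regions inside, and Lef1, a related factor, 11.2 and 17.9 with 26. Rora had 78.8 and 60.2 with 54 regions inside, Zfhx3 46.8 and 53.0 with 76, and Foxp2 81.4 and 54.6 with 37. Pou4f1, known from the habenula, had 73.7 and 80.3, Lhx2 66.5 and 75.0, Gbx2 24.7 and 33.2, and Lhx9 27.1 and 28.6. Shox2, a gene of thalamic pacemaker-like neurons, had no shared region over its start. Tcf7l2, Pou4f1, Lhx2, Gbx2 and Lef1 were among the genes with higher values in replicate 2.

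Effector genes of thalamic neurons ranged more widely. Cbln1, a synapse organiser, had a −log10 p of 444 and 368, Plcb4, a phospholipase C gene, 225 and 183 with 60 regions inside, and Synpo2 121 and 103 with 31. Slc17a6, which encodes VGLUT2, the vesicular glutamate transporter of relay neurons, had 57.7 and 42.1. Ntng1, a netrin-like adhesion gene, had 64.3 and 90.2 with 49 regions inside, Kcnc2, a fast potassium channel gene, 39.0 and 35.6, and Prkcd, a protein kinase C gene of sensory thalamus, 32.4 and 36.3. Necab1, a calcium-binding protein gene, was the weakest with 5.62 and 7.39. In all, 11 of the 19 thalamic regions over starts (57.9%) had the higher −log10 p in replicate 2, against 17.3% of the 13162 covered starts of all genes. The same count was 8 of 16 for astrocyte genes, 3 of 6 for ependymal and choroid plexus genes, 8 of 18 for inhibitory neuron genes and 3 of 7 for microglial genes. It was 3 of 19 for oligodendrocyte genes, 1 of 7 for cortical and hippocampal genes and 2 of 22 for housekeeping genes. For endothelial and mural genes it was 3 of 16, for oligodendrocyte precursor genes 3 of 13 and for GABA-A receptor subunit genes 2 of 13. Replicate 1 had the higher value at all of the 20 strongest regions and in 65.7% of all shared regions. The lists were not matched to all genes in strength, and no test of these counts was made. The starts of Cbln1, Cacna1g, Foxp2 and Necab1 are not listed, so that their values belong to a region over either end of the gene.

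For channels that give thalamic neurons burst firing and pacemaking, 9 of 11 starts (81.8%) were covered, against 60.1% of all genes. Only 3 (27.3%) were covered by one of the 20000 strongest regions, against 41.8% of all genes. Cacna1g, the T-type calcium channel gene that carries the burst in relay neurons, had a −log10 p of 172 in replicate 1 and 140 in replicate 2, and Kcnn2, a calcium-activated potassium channel gene, 150 and 140. Of the pacemaker channel subunit genes, Hcn2 had 39.8 and 51.6, Hcn4 33.5 and 31.8, and Hcn3 6.19 and 10.7. Cacna1i, the T-type gene of the reticular nucleus, had 15.8 and 10.6. Kcnk3, a leak channel gene, had 46.0 and 34.1. Kcnma1 had 32.9 and 44.5 with 77 regions inside its 713 kb. Cacna1h and Kcnk9 had none. For 7 of the 11 the start is not listed.

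Of 16 GABA-A receptor subunit genes, 13 (81.25%) had a region over the start, against 60.1% of all genes. Within 1 kb of the start, 14 had one, against 14586 of all 21887 genes. One of the 20000 strongest regions covered 4 of the 16 (25%), against 41.8% of all genes. Gabrg1 had a −log10 p of 335 and 253, and Gabra4 and Gabrb1, which lie head to head, shared 1 region with 75.0 and 58.8. Gabra3, Gabra6 and Gabrp had none. Of 24 glutamate receptor genes, 14 had a region over the start, a share of 58.3% against 60.1% of all genes, led by Grin3a with 372 and 348, Grm3 with 292 and 220, Gria2 with 210 and 217 and Grm7 with 214 and 183. One of the 20000 strongest regions covered 6 of the 24 (25%). Within 1 kb of the start, 23 of the 24 had a region, against 14586 of all 21887 genes. The 2 families were not tested against each other. Ephrins and Eph receptors, which guide retinal axons to their places in the dLGN, had 20 of 22 starts covered. The share was 90.9%, against 60.1% of all genes. One of the 20000 strongest regions covered 11 of the 22 (50%), against 41.8% of all genes. Epha7 had 1005 and 905, Efnb2 430 and 409, Ephb6 377 and 306 and Epha5 357 and 296. Efna5, an ephrin of retinotopic mapping, and Efnb3 had none over the start. With 1 kb allowed all 22 had a region, against 14586 of all 21887 genes.

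Activity-regulated genes, which neurons transcribe within minutes to hours of firing, had covered starts in 22 of 24 cases, and 17 of the regions were among the 20000 strongest, a share of 70.8% against 41.8% of all genes. Homer1, a postsynaptic scaffold gene, had a −log10 p of 917 in replicate 1 and 701 in replicate 2. Jun had 808 and 736, Egr1 375 and 272 and Inhba 276 and 276. Egr3 and Fosl2 had none over the start. Housekeeping genes also gave 22 of 24 (91.7%, against 60.1% of all genes), with 18 (75%) among the 20000 strongest. Pgk1 had 625 and 539, Eef1a1 555 and 491, B2m 581 and 442 and Vcp 567 and 447. Actb and Ywhaz had none over the start. The activity-regulated genes thus stood beside the housekeeping genes in both counts, and the lists were not tested.

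Genes of macroglial cells were covered at most starts, above the 60.1% of all genes. Their shares covered by the 20000 strongest regions were near or below the 41.8% of all genes. Of 20 oligodendrocyte genes, 19 had a region over the start and 8 (40%) had one of the 20000 strongest. Olig1, a transcription factor of the lineage, had a −log10 p of 273 and 276, and the myelin genes Ermn, Cldn11 and Mog had 215 and 160, 161 and 196, and 159 and 128. Of 15 genes of oligodendrocyte precursors, 13 had a region and 4 (26.7%) had one of the 20000 strongest. They were led by Ptprz1 with 164 and 152, and then Lhfpl3 and Olig2. Of 20 astrocyte genes, 16 had a region and 4 (20%) had one of the 20000 strongest. They were led by Nfib with 157 and 122, Aldh1l1 with 85.9 and 116, Ndrg2 with 82.8 and 87.3 and Slc4a4 with 95.8 and 74.7. Gfap and Aqp4 had none over the start.

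Markers of microglia, inhibitory neurons, vessels and the ventricle gave differing counts. Of 22 microglial genes, 7 had a region over the start, 31.8% against 60.1% of all genes, with P2ry12, a purine receptor gene, at a −log10 p of 137 and 78.3, Sall1 at 72.9 and 73.8 and Irf8 at 76.6 and 45.1. Csf1r, Cx3cr1 and Tmem119 had none. Of 22 inhibitory neuron genes, 18 (81.8%) had a region, against 60.1% of all genes. But 0 had one of the 20000 strongest, against 41.8% of all genes. The number covered was 3 with the 50000 strongest regions of each library, against 11243 of all 21887 genes. Dlx1, a homeobox gene of inhibitory neurons, had 72.1 and 54.4, and Reln 32.4 and 40.6. Of 22 genes of endothelial and mural cells, 16 had a region over the start but 2 had one of the 20000 strongest (9.09% against 41.8% of all genes). The number with a covered start was 3 when each library entered with its 50000 strongest regions, against 11243 of all 21887 genes. The endothelial and mural genes were led by Slc2a1, the glucose transporter gene of the blood-brain barrier, with 191 and 180. Foxc1 had 168 and 125, and then came Kcnj8 and Myh11. The region at Kdr, the VEGF receptor gene, differed between the libraries, with 67.5 and 19.6. Of 14 ependymal and choroid plexus genes, 6 (42.9%) had a region and 3 (21.4%) had one of the 20000 strongest. These shares compare with 60.1% and 41.8% of all genes. Enkur, a gene of motile cilia, had 847 and 737, Dnah11 had 185 and 176, and Rsph1 and Foxj1 came after it. Ttr, the choroid plexus transthyretin gene, had none.

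Genes restricted to other tissues and Hox genes had the lowest counts. None of 30 genes restricted to tissues outside the brain had a shared region over the start, among them Alb, Ins1, Ins2, Myh6 and Krt5. Single libraries gave 0 and 1 of 30, 3 of 30 had a region over either end of the gene, and 6 of 30 had a region within 1 kb of the start. Of 39 Hox genes, which pattern the hindbrain and trunk, 1 had a region over the start, Hoxd1 with a −log10 p of 65.9 in replicate 1 and 41.4 in replicate 2, and 7 had one within 1 kb. Both lists lie below the 60.1% of all genes. Of all 21887 genes, 14586 had a region within 1 kb of the start and 12056 had one over either end of the gene.

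**Figure D5:**
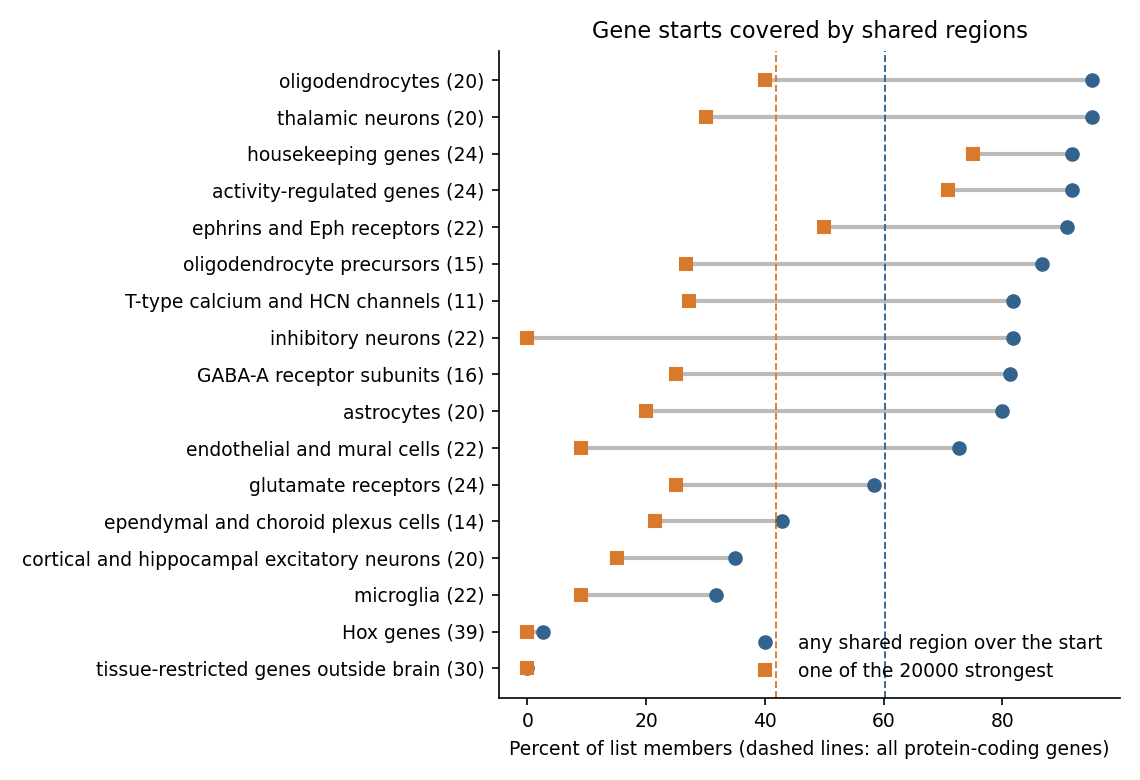
Percent of the members of 17 gene lists (number of members in brackets) with a shared region over the gene start (circles) and with one of the 20000 strongest over it (squares), with dashed lines at the values of all protein-coding genes, 60.1% and 41.8%. Activity-regulated and housekeeping genes have both symbols far right, inhibitory neuron genes have many covered starts but none by the 20000 strongest, and genes restricted to other tissues have none.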

How the data were processed

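ATAC-seq peak lists of 2 dLGN libraries from mice on control chow were used. The authors ran the ENCODE ATAC-seq pipeline for paired-end data on mm10 (multimapping 0, p threshold 0.01), as their pipeline instructions state. File names record that reads were trimmed, that duplicates and mitochondrial reads were dropped, that reads were handled for Tn5, and that lists were limited to 300000 peaks and filtered at the end. Neither the aligner nor the peak caller is given in the sources used here. The submitters' processing notes name deepTools 3.5.0 without a step. Peaks were called by the authors in each sample. The deposited lists give the fold enrichment of a peak as a ratio. They give its p-value and q-value as deposited −log10 values. The deposited score, which is 10 times the −log10 p with a limit of 1000, was not used.

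Peaks were merged and joined with Python 3.11.15, numpy 2.4.6 and pandas 2.3.3, and the interval steps were tested on simulated data. Several overlapping peaks of a library became 1 region with its highest −log10 p. A region was placed by its centre against protein-coding genes and listed starts of RefSeq (GRCm38.p6, the mm10 build). All 359 genes of the 17 lists were matched by symbol. A low depth or a high background lowers −log10 p, and merging widens regions with several summits. No test was made, since a single group of 2 libraries is described. Named genes were those at the 20 strongest, 20 strongest beyond 10 kb of a gene and 20 widest regions, the 20 with most regions, the 20 with most per 100 kb, all thalamic neuron and burst-channel genes and 4 leading members of each other list; other genes named in the text were chosen after their values were seen. A few genes that this rule picks are left out of the text. Regions, lists and rules were chosen with earlier results of these data known. Alternatives were a q-value limit of 0.05, 50000 regions per library, an overlap of 50%, merging of peaks up to 100 bp apart, ranking by fold, the common interval, the summit in place of the centre, all annotated genes, other margins around genes, and each library alone. Using both ends of every gene was added after seeing the data.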

Additional observations from a re-analysis of the deposited data

How the results depend on the processing

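For 27 results, 186 values were computed under alternative settings, and 148 of them stayed close to the main value. Counts had to keep within 1.5 times. Shares and widths had to keep within the standard deviation of the single-library values, and correlations had to be the same after rounding. With the 50000 strongest regions of each library, 43676 regions were shared, the correlation of −log10 p was 0.905, 25.9% of regions lay at starts, 35.7% inside genes and 19.3% beyond 50 kb, the median width was 681 bp and 13 of the 20 widest remained. With all annotated genes 13.8% lay at starts, 52.5% inside and 7.95% beyond 50 kb. The share inside genes was 46.9% with a q-value limit of 0.05 and 47.9% with both ends of every gene. Ranking by fold kept 1 of the 20 strongest regions. Merging peaks up to 100 bp apart kept 12 of the 20 widest, and the common interval kept 12, with a median width of 303 bp. Leaving out each replicate in turn gave 204905 to 215535 regions, 8.26% to 8.87% at starts, 48.8% to 48.9% inside genes, 22.8% to 23.9% beyond 50 kb, a median width of 292 to 306 bp, 17 to 18 of the 20 strongest, 10 to 11 of the 20 widest, 18 to 19 of the 20 genes with most regions and 13168 to 13234 genes with a covered start. A library alone keeps its weak regions that the other lacks. Of the 17 lists, 4 moved by over 1.5 times with 50000 regions per library and 4 with a region within 1 kb of the start. With 50000 regions the starts of inhibitory neuron genes were covered in 3 of 22 cases, of endothelial and mural genes in 3 of 22, of astrocyte genes in 10 of 20 and of oligodendrocyte precursor genes in 7 of 15. Over all genes the count was then 11243 of 21887. With both ends of every gene the counts were 11 for inhibitory neurons, 11 for cortical and hippocampal genes and 3 for tissue-restricted genes, against 12056 over all genes. No paired analysis was possible because a single group is described and no test is made. The depth of the libraries is unknown, so a site absent from a list may be open below the limit of detection.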
